A study of Mus musculus with 4 samples.

Results

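The cullin and Kelch-like genes encode the scaffolds and many of the substrate adaptors of cullin-RING ubiquitin ligases. They were taken by symbol: every gene named Cul with a digit, Klhl or Kbtbd with a number, Rbx1 or Keap1. The rule found 52 of the 27115 genes in the count table, namely 8 cullins, 34 Klhl genes, 8 Kbtbd genes, Rbx1 and Keap1.

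The study sequenced RNA of mouse 2-cell embryos kept in in vitro culture and collected on Day 2. The first group was control embryos of WT genotype, and the other carried the genotype Trim75 OE, overexpression of Trim75, a TRIM-family RING protein gene. Each group had 2 libraries. The labels give no mouse strain, no number of embryos per library and no means of overexpression, and do not state whether each library was a pool of its own, so the p-values measure only the spread between these libraries. The titles of both control libraries carry a tag, L2C, that the Trim75 overexpression titles lack. The codes that end the titles are consecutive within each group and lie apart between the groups. The labels do not say what the codes stand for. If the tag or the codes mark a batch, its effect and that of the genotype are inseparable here.

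In a cullin-RING ligase the cullin is a rod. A RING protein at its foot, Rbx1 or the relative Rnf7, recruits the ubiquitin-carrying enzyme, and the head holds an adaptor that binds the protein to be tagged. Cul3 uses proteins with a BTB domain as adaptors, and the Klhl and Kbtbd proteins join such a domain to Kelch repeats that bind the substrate. Attachment of the ubiquitin-like protein Nedd8 to the cullin switches the ligase on. In mouse oocytes and early embryos, cullin ligases are known for clearing maternal proteins and for control of meiosis and the first divisions.

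The libraries held 9965081 to 14599670 counted reads and a read in 19830 to 21886 genes. Trim75 was counted at 171 and 117 CPM (counts scaled to library size) in the controls and at 919 and 990 CPM in the overexpression libraries, in the direction of the labels. All 8 listed 2-cell markers in the table had reads in every library, with a summed level of 1176 to 1829 CPM, and the 8 oocyte markers summed to 5963 to 8977 CPM. Among the 8 oocyte markers, 2 lay apart higher under overexpression, against 24.0% of all tested genes, and 1 apart lower, against 19.6%. The lower was Gdf9, with 544 and 371 CPM in the controls and 344 and 330 CPM under overexpression. Its log2 fold change was -0.44, with an edgeR adjusted p of 0.71. Oog1 had 608 and 702 CPM in the controls and 1451 and 1473 CPM under overexpression, a log2 fold change of 1.16 with an edgeR adjusted p of 0.32 and a DESeq2 adjusted p of 4.5e-04. Bmp15, an oocyte growth factor, had 291 and 265 against 523 and 495 CPM, a log2 fold change of 0.87 with an edgeR adjusted p of 0.32 and a DESeq2 adjusted p of 0.024. Cumulus markers, 6 of 10 in the table, summed to 12.5 and 0.686 CPM in the controls and to 0 and 19.5 CPM in the overexpression libraries. Most of those reads were of Tnfaip6, with 124 and 3 reads in the controls and 0 and 136 under overexpression, and of Ptgs2, with 2 and 0 against 0 and 71. Foxl2, Fshr, Has2 and Ptx3 had at most 3 reads in a control library and 0 in both overexpression libraries. Spermatid and sperm markers, 2 of 8 in the table, summed to 20.3 and 0.411 CPM in the controls and to 12.0 and 4.13 CPM under overexpression. The part of these markers in the results was not tested.

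Promoter sequences are shown for 4 of the 13 tested members whose groups differed by more than the libraries of either group did: Cul1 and Klhl15 were higher under overexpression, and Klhl7 and Keap1 lower. Each run holds 300 bases, 250 before and 50 after the RefSeq start (GRCm38.p6), on the gene's own strand, 5′ to 3′. They are chr6:47454069-47454368 (plus strand) for Cul1, chrX:94234680-94234979 (plus) for Klhl15, chr5:24100340-24100639 (plus) for Klhl7 and chr9:21239283-21239582 (minus) for Keap1. Capitals mark matches to the GC box GGGCGG on either strand and, in Cul1, also to the ETS core CCGGAA on either strand.
Cul1: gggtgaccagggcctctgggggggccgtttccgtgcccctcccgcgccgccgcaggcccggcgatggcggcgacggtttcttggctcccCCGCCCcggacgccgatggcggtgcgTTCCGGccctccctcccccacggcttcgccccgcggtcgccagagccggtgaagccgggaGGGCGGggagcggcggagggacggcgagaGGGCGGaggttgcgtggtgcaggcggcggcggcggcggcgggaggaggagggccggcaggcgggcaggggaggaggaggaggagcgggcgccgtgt
Klhl15: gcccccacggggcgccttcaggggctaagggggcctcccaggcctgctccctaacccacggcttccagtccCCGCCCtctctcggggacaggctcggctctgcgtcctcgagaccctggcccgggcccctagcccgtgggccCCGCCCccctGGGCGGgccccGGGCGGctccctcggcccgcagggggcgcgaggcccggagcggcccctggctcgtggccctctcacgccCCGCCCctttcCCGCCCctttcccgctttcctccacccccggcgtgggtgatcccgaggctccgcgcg
Klhl7: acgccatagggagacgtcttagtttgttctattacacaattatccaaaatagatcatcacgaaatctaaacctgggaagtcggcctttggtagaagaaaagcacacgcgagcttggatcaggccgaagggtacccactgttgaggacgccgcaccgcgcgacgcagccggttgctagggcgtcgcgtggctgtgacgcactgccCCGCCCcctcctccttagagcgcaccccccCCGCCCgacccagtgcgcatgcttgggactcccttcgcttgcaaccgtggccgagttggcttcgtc
Keap1: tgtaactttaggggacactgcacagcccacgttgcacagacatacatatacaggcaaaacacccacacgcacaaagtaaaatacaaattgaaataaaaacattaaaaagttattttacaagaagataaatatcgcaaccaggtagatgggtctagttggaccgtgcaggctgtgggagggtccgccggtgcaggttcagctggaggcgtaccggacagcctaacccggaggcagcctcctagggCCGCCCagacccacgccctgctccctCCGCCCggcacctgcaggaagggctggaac

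The share of G and C was 79.7% of bases for Cul1, 78.7% for Klhl15, 59.3% for Klhl7 and 53.3% for Keap1. It was computed for these promoters only and has no background, so a relation to the direction of change was not tested. The GC box, the letters to which Sp1-type factors bind, matched 3 times in Cul1, 6 times in Klhl15 and 2 times each in Klhl7 and Keap1. RefSeq promoters were found for 44 of the 52 members and for 34 of the 40 members that could be tested. The GC box was in 70.6% of those 34 promoters, against 57.3% of the 13106 promoters of all tested genes and 35.7% of the 32851 promoters in the table. The ETS core was in 35.3% of the 34, against 25.2% of tested genes and 14.9% of all promoters. CCAAT was in 23.5% of the 34, against 38.9% of tested genes and 37.4% of all. TATAAA was in 11.8% against 8.13% and 13.6%, and the E-box CACGTG in 11.8% against 9.66% and 7.15%. The antioxidant response element core TGACNNNGC, the site of Nfe2l2, the factor that Keap1 restrains, was in 20.6% against 13.9% and 12.4%. Both strands were searched. Each member entered with only the promoter nearest its principal start in GENCODE, although Cul1, for example, has 3. The shares of tested genes and of all promoters count every promoter of a gene, so they are not like measures. All these shares describe letters in a window and were not tested.

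Across the 52 genes, a few carried most of the reads. Reads were found for 45 and 39 of the members in the controls and for 46 and 43 in the overexpression libraries. Together the members took 0.437% and 0.459% of the reads in the controls and 0.577% and 0.510% under overexpression. After TMM scaling they summed to 4204 and 4590 against 5858 and 5335 CPM. Both overexpression sums lay above both control sums. The cullins and Rbx1 made most of that difference, with 2018 and 2305 CPM in the controls and 3041 and 3070 CPM under overexpression. Most of this was Cul1 alone, with 1103 and 1195 CPM in the controls and 2105 and 1912 CPM under overexpression. Of the 8 tested genes among the cullins and Rbx1, 6 had a higher and 2 a lower fitted level. In bulk embryos, fewer cells with a transcript and less transcript per cell cannot be told apart.

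**Figure D1:**
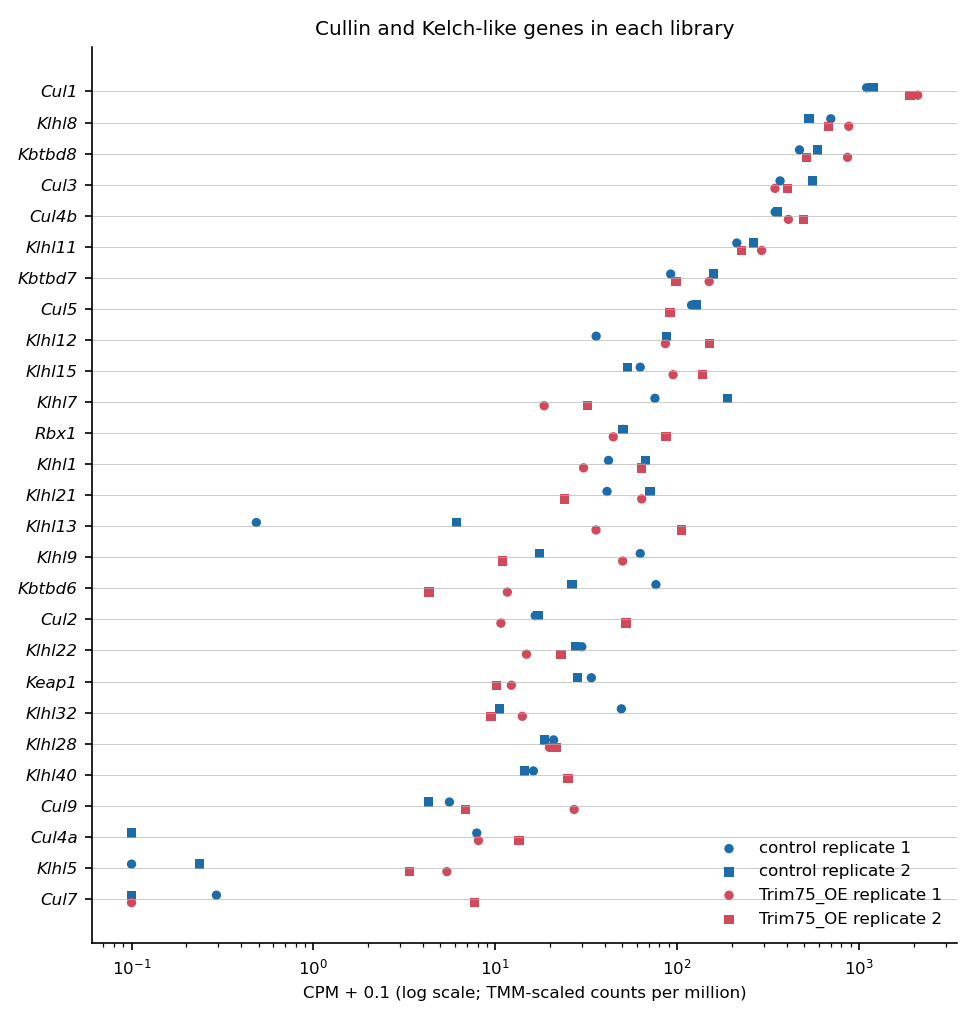
Level of the named members (CPM + 0.1, log scale) in each of the 4 libraries, a row per gene, with control and Trim75 overexpression libraries as separate points. Cul1 is the highest in every library, and the points of Klhl13 and Klhl5 lie far apart between the groups.

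A test of each gene was run with edgeR's quasi-likelihood method over the 16801 genes with enough reads, 40 of the members among them. None of the 40 members passed an adjusted p of 0.05, nor did any of the 16801 genes (0.0%). Trim75, the overexpressed gene itself, was thus not called by edgeR either, at an adjusted p of 0.32. Its DESeq2 adjusted p was 5.2e-14. Without adjustment, p was under 0.05 for 4 members that were higher under overexpression, Cul1, Klhl5, Klhl13 and Klhl15, against 7.71% of all tested genes. It was under 0.05 for 2 that were lower, Klhl7 and Kbtbd6, against 3.53% of all tested genes. DESeq2, the alternative, called 2 members higher, Cul1 and Klhl13, against 3.78% of the 16075 genes to which it gave an adjusted p, and 1 lower, Klhl7, against 1.73%.

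Of the 40 tested members, 20 had a higher and 20 a lower fitted level under overexpression, and the median log2 fold change was 0.03, the same as over all tested genes. In 10 members both overexpression libraries lay above both controls, against 24.0% of all tested genes. In 8 members both lay below, against 19.6%, and in the other 22 the groups overlapped. The difference between group means was larger than the difference between the libraries of either group in 13 of the 40 members (32.5%), against 31.1% of all tested genes. Libraries of the same group differed by more than 4-fold, on log2(CPM + 0.5), in 12 of the 40 (30.0%), against 29.2%. As a set, the tested members thus had shares close to those of all genes.

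**Figure D2:**
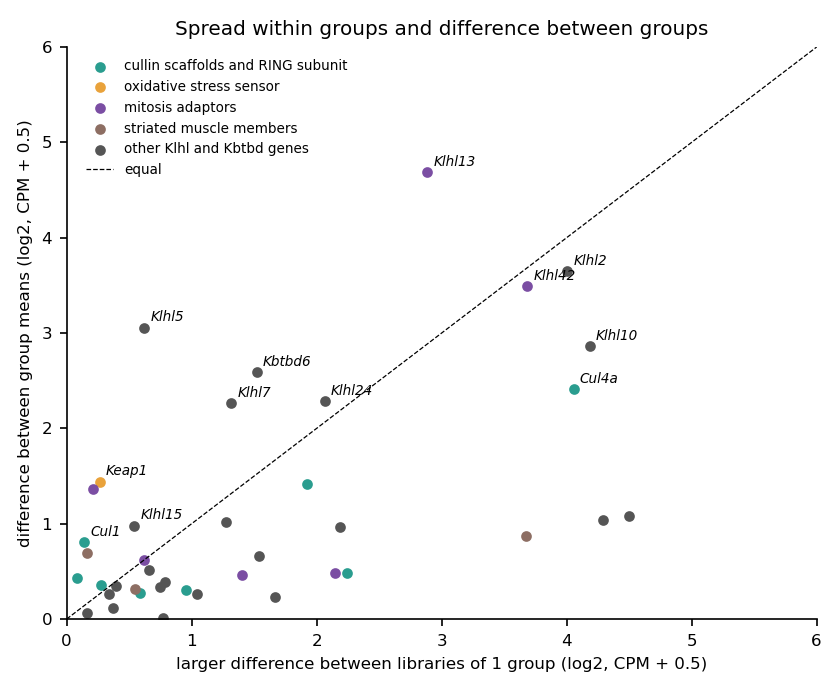
Difference between group means against the larger difference between 2 libraries of the same group, both on log2(CPM + 0.5), for the 40 tested members coloured by role, with a dashed line where they are equal. In the 13 members above the line the groups differ by more than their libraries do.

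Cul1, the scaffold of the Skp1 and F-box protein ligases, was the most abundant member and was higher under overexpression. It lies at chr6:47453398-47526139 on the plus strand (mm10). It had 11429 and 17429 reads in the controls and 27676 and 20347 under overexpression, or 1103 and 1195 against 2105 and 1912 CPM. The groups did not overlap. The mean was 1149 ± 65.2 CPM in controls and 2008 ± 136 CPM under overexpression (SD, n = 2 each), a ratio of 1.75. The log2 fold change was 0.81 ± 0.18 (SE), with an edgeR unadjusted p of 0.0097 and adjusted p of 0.32. DESeq2 gave an adjusted p of 0.023, and the log2 fold change was 0.71 to 0.87 with any library left out. The DESeq2 call was lost without any of the 4 libraries: its adjusted p was 0.10 without control replicate 1, 0.054 without control replicate 2, 0.41 without overexpression replicate 1 and 0.27 without overexpression replicate 2. An antisense gene shares 192 exonic bases with Cul1, and the sources used here do not say whether counting used strand.

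Cul3, the scaffold for the Klhl and Kbtbd adaptors, had 368 and 554 CPM in the controls and 345 and 403 CPM under overexpression. The groups overlapped, and the log2 fold change was -0.30 ± 0.29. It was 0.02 without control replicate 2, the highest library.

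Cul4b, which carries the Ddb1 adaptor, had 346 and 357 CPM in the controls and 409 and 497 CPM under overexpression. Both overexpression libraries were higher, at a log2 fold change of 0.37 ± 0.22 (edgeR adjusted p = 0.69). Its paralog Cul4a was scarce, with 81 and 0 reads in the controls and 105 and 143 reads under overexpression. Processed pseudogenes resemble Cul4a at up to 91.7% identity over 844 bases, so its reads are uncertain.

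Cul5, the scaffold for elongin and SOCS-box proteins, had 120 and 127 CPM in the controls and 91.9 and 91.2 CPM under overexpression. Both overexpression libraries were lower, at a log2 fold change of -0.43 ± 0.26 (edgeR adjusted p = 0.70). The libraries of each group lay close together. Cul2, which pairs with the same elongins and with Vhl, had 16.5 and 17.1 CPM in the controls and 10.6 and 52.2 CPM under overexpression. Its 2 overexpression libraries lay on either side of the controls, and the log2 fold change of 0.90 became -0.65 without overexpression replicate 2. A processed pseudogene is 82.6% identical to Cul2 over 1213 bases.

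Cul9, a large cytoplasmic cullin known as an anchor of p53, had 57 and 61 reads in the controls and 356 and 72 reads under overexpression. Both overexpression libraries were higher, the second by little, at a log2 fold change of 1.80 ± 1.08. It was 0.46 without overexpression replicate 1 and 2.48 without overexpression replicate 2. Cul7, its closest relative, had 2 and 0 reads in the controls and 0 and 81 reads under overexpression and was not tested.

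Rbx1, the RING subunit shared by most cullins, had 50.5 and 50.3 CPM in the controls and 44.5 and 86.9 CPM under overexpression. The controls were nearly equal, and the overexpression libraries fell on either side of them. The log2 fold change of 0.38 was -0.18 without overexpression replicate 2. A pseudogene, Rbx1-ps, is 99.1% identical over 327 bases and had 63.6 and 58.4 CPM in the controls and 46.3 and 121 CPM under overexpression. Reads could be split between Rbx1 and that copy, so both are uncertain.

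Per length, as the authors' FPKM, the cullins summed to 477 and 521 in the controls and 704 and 681 under overexpression. Cul1 held 59.6% and 56.7% of that sum in the controls and 72.9% and 66.5% under overexpression. The share of Cul3 was 16.5% and 21.8% against 9.91% and 11.6%, and that of Cul5 was 3.21% and 2.99% against 1.58% and 1.57%. Cul4b held 19.5% and 17.7% against 14.8% and 18.0%, which overlap. These are parts of the same sum, so a larger part for Cul1 leaves less for the others. The FPKM of Cul3 itself overlapped, at 78.6 and 114 in the controls and 69.8 and 79.1 under overexpression. In order of mean FPKM, Cul1 came first at 290 ± 8.21 in controls and 483 ± 42.7 under overexpression (SD, n = 2 each). Cul4b (92.5 ± 0.634) and Cul3 (96.1 ± 24.7) did not differ beyond their spread in controls. Under overexpression Cul4b stood at 113 ± 13.1 and Cul3 at 74.5 ± 6.60. Cul5 followed at 15.4 ± 0.204 in controls and 10.9 ± 0.284 under overexpression. Rbx1 was at 11.3 ± 0.343 and 13.9 ± 6.11.

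**Figure D3:**
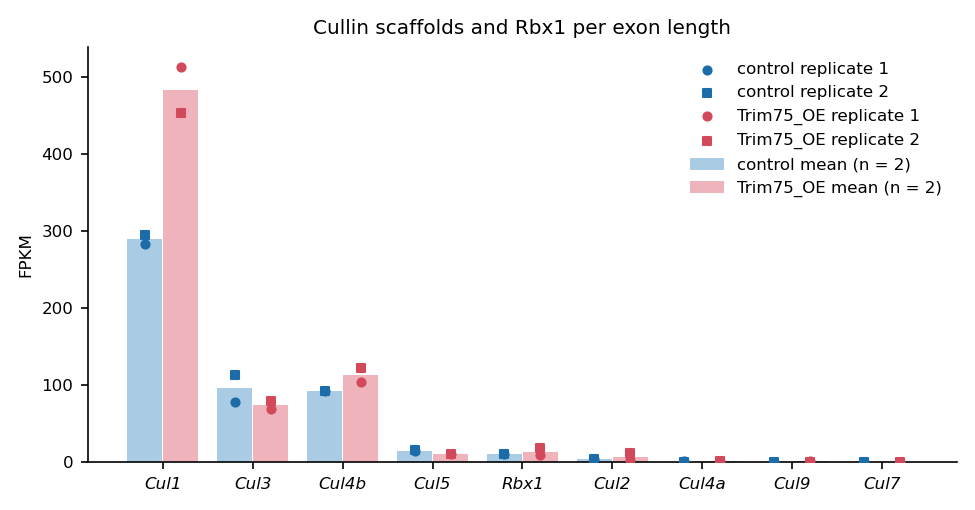
Level of each cullin and Rbx1 per exon length (FPKM); bars are group means and points the 2 libraries of each group. Cul1 is the highest in all 4 libraries, at 284 and 295 FPKM in the controls and 513 and 453 under overexpression. All cullins, Cul1 included, summed to 477 and 521 against 704 and 681 FPKM.

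Keap1, a Kelch adaptor of Cul3 that senses oxidative stress and holds Nfe2l2 (NRF2) for destruction, was lower under overexpression. It lies at chr9:21229730-21239361 on the minus strand. It had 349 and 413 reads in the controls and 160 and 107 under overexpression, or 33.7 and 28.3 against 12.2 and 10.1 CPM. The groups did not overlap, and the means were 31.0 ± 3.79 and 11.1 ± 1.49 CPM (SD, n = 2 each). The log2 fold change was -1.48 ± 0.62, with an edgeR unadjusted p of 0.070 and adjusted p of 0.51, and a DESeq2 adjusted p of 0.21. It stayed between -1.65 and -1.35 with a library left out. An antisense gene shares 510 exonic bases with Keap1, so antisense reads could enter its count. A processed pseudogene is 82.1% identical to Keap1 over 335 bases.

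Of the 24 listed genes of the Keap1 and NRF2 pathway in the table, 21 were tested. None passed edgeR's adjusted threshold, and 15 were higher and 6 lower. In 8 both overexpression libraries lay above both controls, against 24.0% of all tested genes, and in 4 below, against 19.6%. An edgeR unadjusted p under 0.05 was found for 2 of the 21, Me1 and Abcc1, both higher, against 7.71% of all tested genes. Me1, the cytosolic malic enzyme that makes NADPH, had 201 and 145 CPM in the controls and 408 and 383 CPM under overexpression. Its log2 fold change was 1.19, with a DESeq2 adjusted p of 0.0093. Abcc1, an exporter of glutathione conjugates, had 0.193 and 0.137 CPM in the controls and 7.07 and 3.29 CPM under overexpression. The pair of highest level were Fth1, the ferritin heavy chain, at 1386 and 1135 against 1261 and 1324 CPM, and G6pdx, which feeds the pentose phosphate pathway, at 352 and 190 against 436 and 463 CPM. The 8 that lay above were Nfe2l2 itself, Me1, Abcc1, G6pdx, Gclm, Hmox1, Prdx1 and Tkt. Nfe2l2 had 24.8 and 34.7 CPM in the controls and 49.5 and 50.2 CPM under overexpression (edgeR adjusted p = 0.70). The 4 that lay below were Gsr, Osgin1, Taldo1 and Ftl1. Gsr had 31.6 and 36.3 CPM in the controls and 8.52 and 12.6 CPM under overexpression. Its log2 fold change was -1.68 (edgeR unadjusted p = 0.051). The median log2 fold change of the list was 0.63, against 0.03 over all tested genes. Libraries of the same group differed by more than 4-fold in 8 of the 21 (38.1%), against 29.2% of all tested genes.

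Among the adaptors, Klhl8, Kbtbd8 and Klhl11 had the highest mean FPKM. Together they held 69.7% and 67.9% of the FPKM of all 42 Klhl and Kbtbd genes in the controls. Under overexpression they held 78.9% and 73.1%. This is a share of a sum, so it also depends on the levels of the other adaptors. Klhl8 had 700 and 531 CPM in the controls and 879 and 682 CPM under overexpression. The groups overlapped, at a log2 fold change of 0.34 ± 0.26. Kbtbd8, which in human cells and frog embryos acts with Cul3 in neural crest specification, had 471 and 592 CPM in the controls and 865 and 515 CPM under overexpression. Its first overexpression library stood above the other 3, and the log2 fold change of 0.38 was -0.07 without it. Klhl11, known in human patients as an autoantigen of a testis tumour-associated encephalitis, had 213 and 264 CPM in the controls and 292 and 226 CPM under overexpression. Its groups overlapped.

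The 6 adaptors listed for mitosis were 1 higher and 5 lower, with a median log2 fold change of -0.50. In human cells Klhl9, Klhl13 and Klhl21 act on Aurora B, Klhl22 on Plk1, Klhl18 on Aurora A and Klhl42 on katanin. Klhl13 had 4 and 88 reads in the controls and 470 and 1120 reads under overexpression, or 0.386 and 6.03 against 35.7 and 105 CPM. Both overexpression libraries were higher, but the libraries of each group also differed several-fold. The log2 fold change was 4.44 ± 1.50, with an edgeR unadjusted p of 0.037 and adjusted p of 0.40, and it ran from 3.46 to 7.47 with a library left out. DESeq2 gave an adjusted p of 0.0096, which became 0.75 without overexpression replicate 2. It was 4.2e-04 without control replicate 1, 3.7e-09 without control replicate 2 and 0.038 without overexpression replicate 1. Klhl13 lies at chrX:23219271-23365082 on the minus strand.

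Klhl9, a gene of 1 exon that is 81.8% identical to Klhl13 over 1829 bases, had 62.6 and 17.4 CPM in the controls and 50.1 and 10.9 CPM under overexpression. The groups overlapped, and replicate 2 was the lower in each. Klhl21 had 41.1 and 70.9 against 63.8 and 23.9 CPM, with overlapping groups. Antisense genes share 661 exonic bases with Klhl9 and 817 with Klhl21, and a pseudogene is 90.2% identical to Klhl21 over 562 bases. Klhl22 had 29.8 and 27.4 CPM in the controls and 14.8 and 22.9 CPM under overexpression. Both were lower, at a log2 fold change of -0.60 ± 0.60. Klhl18 had 22.7 and 21.9 CPM in the controls and 8.97 and 7.71 CPM under overexpression, a log2 fold change of -1.42 ± 0.72 with an edgeR adjusted p of 0.61. Its groups lay apart and each was tight. Klhl42 had 226 and 258 reads in the controls and 78 and 0 reads under overexpression. Klhl18 and Klhl42 fell under the level set for naming a gene and are given to complete the list of 6.

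Klhl7, whose human form is mutated in a retinitis pigmentosa, was lower under overexpression. It lies at chr5:24100605-24160792 on the plus strand and had 782 and 2754 reads in the controls and 243 and 342 reads under overexpression. This was 75.5 and 189 against 18.5 and 32.1 CPM, so that the groups did not overlap although the controls differed by more than 2-fold. The log2 fold change was -2.39 ± 0.63, with an edgeR unadjusted p of 0.016 and adjusted p of 0.32. DESeq2 gave an adjusted p of 0.0089. That p was 0.21 without control replicate 2, 0.23 without overexpression replicate 1, 0.043 without overexpression replicate 2 and 5.0e-05 without control replicate 1. In edgeR the log2 fold change was -1.58 without control replicate 2, -2.07 without overexpression replicate 1, -2.84 without overexpression replicate 2 and -2.91 without control replicate 1.

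Klhl15, which in human cells removes a regulatory subunit of the phosphatase PP2A, was higher under overexpression. It lies at chrX:94234599-94277724 on the plus strand and had 649 and 780 reads in the controls and 1249 and 1473 reads under overexpression. This was 62.6 and 53.5 against 95.0 and 138 CPM, with groups that did not overlap. The log2 fold change was 1.01 ± 0.35, with an edgeR unadjusted p of 0.041 and adjusted p of 0.42. DESeq2 did not call it (adjusted p = 0.18).

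Kbtbd6 and Kbtbd7 act together with Cul3 in human cells, where they target the Rac activator TIAM1. They are neighbours, at chr14:79451835-79454818 and chr14:79426511-79431036, each of 1 exon, and are 84.1% identical over 2045 bases. Kbtbd6 had 76.4 and 26.3 CPM in the controls and 11.6 and 4.23 CPM under overexpression. Both overexpression libraries were lower, at a log2 fold change of -2.70 ± 0.91 with an edgeR unadjusted p of 0.037 and adjusted p of 0.40, and a DESeq2 adjusted p of 0.051. With a library left out, the edgeR log2 fold change ran from -3.62 without overexpression replicate 1 to -1.75 without control replicate 1. Kbtbd7 had 92.1 and 158 CPM in the controls and 150 and 98.4 CPM under overexpression, so the groups overlapped, at a log2 fold change of -0.01. Reads could be split between these copies, and both values are uncertain to that extent.

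Klhl5 was all but absent from the controls, with 0 and 2 reads, and had 70 and 35 reads under overexpression. Its fitted log2 fold change of 5.70 ± 1.72 depends on the small count added to every library, and the edgeR adjusted p was 0.36. Klhl12, which in human cells enlarges COPII transport vesicles, had 35.8 and 87.3 CPM in the controls and 86.2 and 150 CPM under overexpression. Its groups overlapped, since the second control was above the first overexpression library. Its log2 fold change of 0.94 ± 0.58 was 0.43 without control replicate 1 and 1.72 without control replicate 2.

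Of the other 4 named adaptors, 3 had groups that overlapped. Klhl1, known from brain, had 41.9 and 67.0 against 30.5 and 63.5 CPM, with overlap. Klhl32 had 49.3 and 10.4 CPM in the controls and 14.0 and 9.40 CPM under overexpression, and 1 control stood apart from the other 3 libraries. Klhl28 had 20.8 and 18.6 against 19.8 and 21.5 CPM, with overlap. Klhl40, a stabiliser of thin filament proteins in striated muscle whose human form is mutated in nemaline myopathy, had 16.1 and 14.3 CPM in the controls and 24.9 and 25.0 CPM under overexpression. Its overexpression libraries were both higher, at a log2 fold change of 0.71 ± 0.61 with an edgeR adjusted p of 0.83. An antisense gene shares 540 of the 2501 exonic bases of Klhl40, so antisense reads could enter its count. Of the 6 listed striated muscle members in the table, 3 were tested, with 1 higher and 2 lower.

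**Figure D4:**
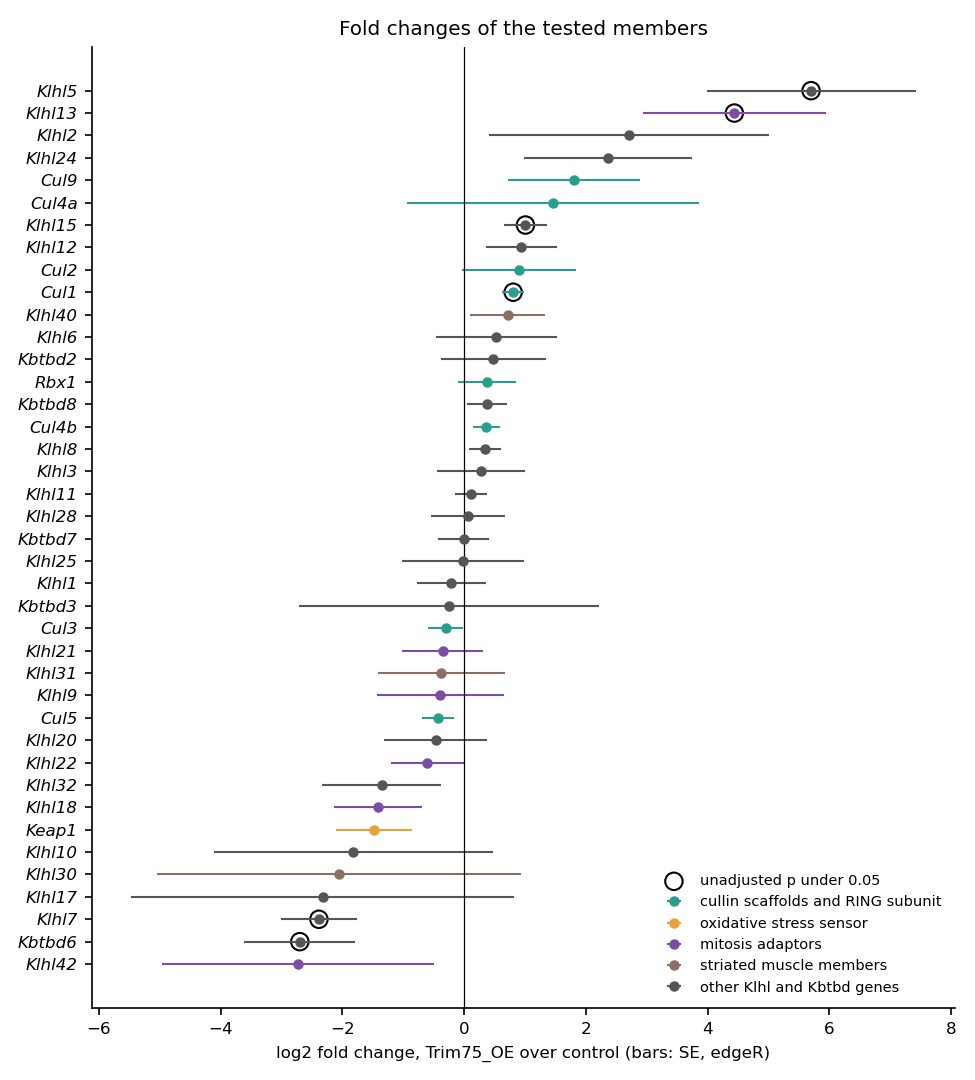
log2 fold change of the 40 tested members, Trim75 overexpression over control, with bars of 1 SE from edgeR, ordered by value and coloured by role; rings mark an unadjusted p under 0.05. Cul1 has the narrowest bar at 0.81 ± 0.18, and 20 members lie on each side of 0.

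The other 14 tested members had log2 fold changes from -2.73 (Klhl42) to 2.71 (Klhl2). Klhl2, an adaptor for WNK kinases, had 78 and 0 reads in the controls and 307 and 276 reads under overexpression. Klhl24, an adaptor for keratin, had 10 and 82 against 352 and 78 reads, with 1 overexpression library far above the other 3. Klhl10, an adaptor of spermatids, had 180 and 190 reads in the controls and 113 and 0 under overexpression, while the sperm gene Prm2 had 207 and 0 reads in the controls and 77 and 39 reads under overexpression. The 12 members not tested were Cul7, Kbtbd4, Kbtbd11, Kbtbd12, Klhl14, Klhl23, Klhl26, Klhl29, Klhl33, Klhl34, Klhl36 and Klhl41. They had at most 103 reads in a library, the value of Kbtbd4 in control replicate 1, where the other 3 libraries held 0. Among the 35 members with a mean of at least 5 CPM, 4 were at 0 in at least 1 library, as were 1190 of the 12367 genes at that level.

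The genes that load and unload Nedd8, with Nedd8 itself and the RING gene Rnf7, were followed as a list of 12, all tested. None passed edgeR's threshold, adjusted or not, and 8 were higher and 4 lower. In 6 both overexpression libraries lay above both controls, against 24.0% of all tested genes, and in 0 below, against 19.6%. Dcun1d5, which helps transfer Nedd8 to cullins, had 346 and 559 CPM in the controls and 795 and 778 CPM under overexpression (edgeR unadjusted p = 0.051). Rnf7, the RING partner of Cul5, had 153 and 211 against 118 and 155 CPM, with overlap. The median log2 fold change was 0.46, against 0.03 over all tested genes.

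The 10 subunits of the COP9 signalosome, which removes Nedd8 from cullins, were 5 higher and 5 lower, and none had an unadjusted p under 0.05 in edgeR. Cops7a, the most abundant, had 391 and 287 CPM in the controls and 309 and 232 CPM under overexpression. Cops9 had 237 and 160 against 183 and 232 CPM. Both pairs of groups overlapped.

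Of the 3 genes for exchange and inhibition, Glmn, a binding inhibitor of Rbx1, had 0 reads in both controls and 220 and 80 reads under overexpression. Its DESeq2 adjusted p was 7.3e-04, while edgeR gave an unadjusted p of 0.0087 and no adjusted call. Cand1, which exchanges adaptors on cullins, had 456 and 987 CPM in the controls and 579 and 435 CPM under overexpression, with overlap.

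Of the 6 listed adaptors of the other cullins, 5 were found in the table. Skp1a, listed for the adaptor of Cul1, was not found under that symbol. All 5 had fitted log2 fold changes below 0, that of Eloc at -0.0066. In 2 of them both overexpression libraries lay below both controls, against 19.6% of all tested genes. Ddb1, the adaptor of Cul4, had 561 and 768 CPM in the controls and 567 and 467 CPM under overexpression. Eloc, an elongin of Cul2 and Cul5, had 374 and 503 against 368 and 506 CPM, with overlap. None had an unadjusted p under 0.05 in edgeR.

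The BTB proteins of Cul3 outside the Klhl and Kbtbd names had 22 genes in the table and 18 tested, with 8 higher and 10 lower. An edgeR unadjusted p under 0.05 was found for 2 of the 18, both lower, against 3.53% of all tested genes, and none passed adjustment. Tnfaip1, which in human cells helps degrade RhoA, had 391 and 226 CPM in the controls and 154 and 126 CPM under overexpression, a log2 fold change of -1.14 with a DESeq2 adjusted p of 0.079. Rhobtb1 had 18.9 and 25.0 against 3.95 and 2.73 CPM, a log2 fold change of -2.71 with a DESeq2 adjusted p of 0.037. Kctd13, a close relative of Tnfaip1, had 151 and 183 CPM in the controls and 185 and 255 CPM under overexpression.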

How the data were processed

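RNA was sequenced from 4 libraries of mouse 2-cell embryos. Raw read counts per gene and FPKM values were deposited for each library, per the file headers. The tools named in the submitters' processing notes are featureCounts, HISAT2, Trim Galore and FastQC, with the build mm10. Not given in the sources used here are their versions, the strand setting and the handling of reads with several matches. FPKM, from the authors, served only to compare genes per length and as an alternative.

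Counts were filtered with edgeR 4.0.16 (R 4.3.3, filterByExpr), scaled by TMM and tested with glmQLFit and glmQLFTest, group as the only term, with Benjamini-Hochberg adjustment over 16801 genes at 0.05. CPM values use TMM-scaled library sizes. The common biological coefficient of variation was 0.908, and 2 libraries a group limit what can be called. DESeq2 1.42.0 and limma 3.58.1 gave alternatives, as did other scalings and filters and leaving out each library; DESeq2 with a library left out was added after seeing the data. Replicate numbers do not come with a stated pairing, so no block was used in the main test.

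Named genes were all cullins, Rbx1 and Keap1. The named Klhl or Kbtbd genes had a mean of at least 20 CPM or an unadjusted edgeR p under 0.05. Listed pathway genes were named by the same p or as the 2 of highest CPM. Some other members were named outside this rule, as were the genes of the Keap1 and NRF2 list whose groups lay apart. The members, roles, pathway lists and marker lists were chosen with earlier results of these data known. Positions and exons come from GENCODE M21 (51 of 52 members matched), transcript likeness from blastn 2.17.0 and promoters from RefSeq.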

Additional observations from a re-analysis of the deposited data

How the results depend on the processing

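Direction and call were compared under other scalings, filters, tests and with each library left out. No gene passed edgeR's adjusted threshold in any edgeR or limma setting, whereas DESeq2 called 885 genes and 3 members; with a library left out it called 133 to 2378 genes and 1 to 4 members. The members' median log2 fold change of 0.03, over 40 members, was 0.30 over 52 without a filter and 0.11 over 35 with a filter of 5 CPM. It was 0.30 over 52 members in DESeq2 and 0.048 to 0.28 over 43 to 45 with a library left out. These medians rest on different sets of members, so the set and the method cannot be told apart in them. Members with an unadjusted p under 0.05 numbered 0 to 5 higher and 1 to 3 lower with a library left out. With a replicate block, 2 members were higher at that p; replicate 1 minus replicate 2 correlated between groups at 0.013 over 16801 genes, so the numbers were not taken as pairs. Of 467 values of named genes under alternatives, 419 kept direction and side of the threshold, 11 newly passed it and 37 changed sign. The sign changed for Klhl28 (-0.0049 by total counts, -0.0026 on FPKM) and Kbtbd7 (0.00997 by upper quartile, 0.0098 with the block). With a library left out, by edgeR or DESeq2, log2 fold changes ran over 0 for Cul2 (-0.65 to 1.62), Cul3 (-0.60 to 0.029), Rbx1 (-0.18 to 0.77), Kbtbd7 (-0.38 to 0.44), Kbtbd8 (-0.072 to 0.71), Klhl1 (-0.84 to 0.20), Klhl9 (-1.89 to 0.80), Klhl11 (-0.11 to 0.30), Klhl21 (-1.26 to 0.19), Klhl28 (-0.015 to 0.14) and Klhl32 (-2.08 to 0.16). The cause was not tested.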

Other observations

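The 3 tested members on the X chromosome, Cul4b, Klhl13 and Klhl15, all had both overexpression libraries above both controls. The fourth, Klhl34, had 4 reads in overexpression replicate 2 and 0 elsewhere and was not tested. Their median log2 fold change was 1.01. Over all 684 tested genes of the X chromosome it was 0.20, with 384 higher and 300 lower, 185 apart higher and 111 apart lower. This grouping was chosen after the values were seen and has no test.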
